A study of Gasterosteus aculeatus with 53 samples.

Results

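The genes described here are 100 genes whose mean expression in the brains of Paxton limnetic females lay between that of Paxton benthic females and that of Priest limnetic females. They were chosen by measured values from 17565 genes with a mean of at least 1 CPM (reads of a gene scaled to a common library total), in a table of 22456 genes of which 21798 had a count. Expression was put on the scale log2(CPM + 0.5) and averaged per population. A gene qualified when the Paxton limnetic mean was strictly between the other population means and at least 0.3 log2 units from each. This was met by 282 genes, or 1.61% of the 17565, and the 100 with the largest smaller gap were kept. Of these, 77 fell from Paxton benthic through Paxton limnetic to Priest limnetic and 23 rose, and they are called falling and rising members below. Since the population means made the choice, the differences between populations are given as a description with no test.

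The study asked how the brain transcriptome of female threespine stickleback (*Gasterosteus aculeatus*) differs between species pairs and with the fish that a female meets. Benthic and limnetic fish of lakes on Texada Island were brought into aquaria, and ripe females spent up to 20 min with 1 stimulus fish before the whole brain was taken for poly(A) RNA sequencing. Female age was not given in the sources used here. The labels name no allele, drug or line beyond the population. The populations used were Paxton benthic (16 brains), Paxton limnetic (18 brains) and Priest limnetic (17 brains). Within each population there were 5 or 6 brains from conspecific courtship (a courting male of the same lake and species), heterospecific courtship (a courting male of the same lake and the other species) and a female social control (another female of the same lake and species). Each library came from 1 female, named here by its trial number. The 51 libraries held between 23849743 and 52788436 counts. With 1 benthic population analysed here, species and lake cannot be told apart in the whole difference from Paxton benthic to Priest limnetic. The step from Paxton benthic to Paxton limnetic is between species of 1 lake. The step from Paxton limnetic to Priest limnetic is between lakes for limnetic fish. Each step has only 1 population on each side.

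As background, benthic stickleback feed on invertebrates near the lake bottom and shore, whereas limnetic stickleback feed on plankton in open water, and the pairs in different lakes are thought to have arisen largely independently. A population mean can be intermediate because every fish has an intermediate level, or because the population holds some fish at each end of the range. The level in each brain bears on this, and so it is given below along with averages. In whole brain, fewer cells of a type and less RNA per cell cannot be told apart. None of the 100 identifiers could be paired with a gene symbol (0 of the 22456 identifiers matched the annotation used here), so members are named by their Ensembl identifiers, without roles, positions or sequences. For the same reason the labelled tissue could not be checked against brain markers.

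Several libraries stand apart and touch the results. The rule left out the libraries of trial 83, labelled Paxton benthic, and trial 9, labelled Priest limnetic, and both went against their labels at the members. The paper removed a Paxton benthic and a Priest limnetic sample that appeared to it to be swapped, without trial numbers in its main text. A swap was not tested here. The level in the library labelled Paxton benthic of trial 83 was nearer to the Priest limnetic mean for 94 of 100 members, and in that labelled Priest limnetic of trial 9 it was nearer to the Paxton benthic mean for 91 of 100. A further library, from the Priest limnetic female social control of trial 72, was used by the rule. It was the highest Priest limnetic library for 51 of the 77 falling members, whereas it was the highest for 8.67% of all 17565 genes. Results that rest on it are given with and without it.

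To place each brain on the gradient, the level of each member was expressed as a position, with 0 at the Paxton benthic mean and 1 at the Priest limnetic mean on the log2 scale, and the median over the 100 members was taken. Paxton benthic brains lay between −0.297 and 0.173 (median 0.0123, n = 16). Paxton limnetic brains lay between 0.174 and 0.875 (median 0.508, n = 18). Priest limnetic brains lay between 0.185 and 1.17 (median 1.08, n = 17), and without trial 72 the lowest was 1.01. The Paxton limnetic brains were spread over much of the gradient, and the other populations lay near their own end apart from trial 72 at 0.185. The ends of the scale are means of these same brains, and the rule put the Paxton limnetic mean between them. Where the populations lie on average was thus fixed by the choice, and nothing is read from it. The position of trial 72 was 0.0131 over the falling members and 1.01 over the rising members. Within Paxton limnetic, the median position was 0.508 in conspecific courtship, 0.566 in heterospecific courtship and 0.531 in the social control, with 6 brains each and ranges that overlapped. The left-out libraries had positions of 1.11 (trial 83) and −0.0676 (trial 9).

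**Figure D1:**
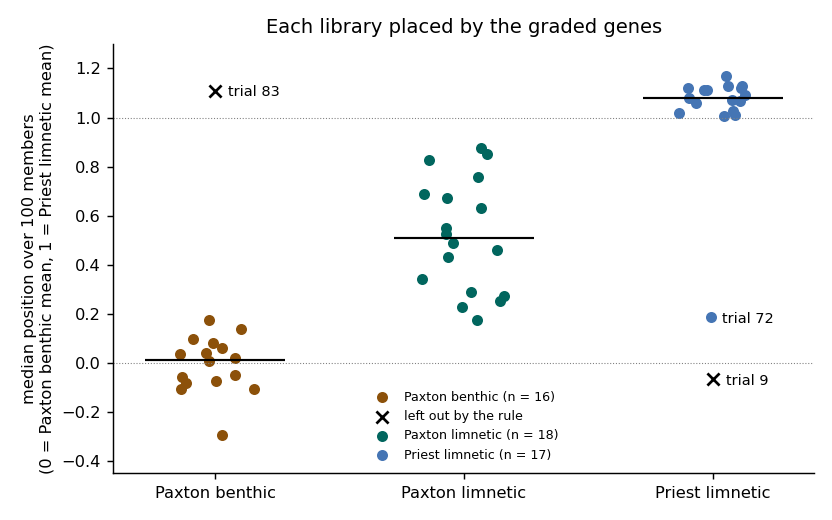
Median position over the 100 members (vertical axis, no unit; 0 is the Paxton benthic mean and 1 the Priest limnetic mean) for each brain, by population, with a line at each population's median. Paxton limnetic brains run from 0.174 to 0.875; trial 72 lies at 0.185 among Priest limnetic brains that otherwise lie at 1.01 or above, and crosses mark the libraries left out by the rule.

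The median position in Paxton limnetic brains ran from 0.174 to 0.875, and so beyond a middle zone on both sides. Most values of single genes in single brains also lay outside that zone. The distance from the Paxton benthic to the Priest limnetic mean was cut into 3 equal zones for each member. Of the 1800 Paxton limnetic values (100 members in 18 brains), 38.1% lay in the benthic zone or beyond it, 21.6% in the middle zone and 40.3% in the Priest zone or beyond it. For 67 members fewer than 5 of the 18 brains were in the middle zone, and for only 4 members were more than 9. The whole difference cut into these 3 zones had a median of 1.58 log2 units over the members. A zone was thus narrow against the SDs given next, and spread around an intermediate level can also carry values out of it. These counts alone therefore do not separate the cases named above. The SD of the log2 values within Paxton limnetic had a median of 0.917 over the members, against 0.201 over all 17565 genes. It was 0.611 against 0.219 within Paxton benthic and 0.762 against 0.226 within Priest limnetic. The SD was largest in Paxton limnetic for 60 of the 100 members, which was the case for 22.8% of all genes. Nothing is read from these SD comparisons, since the rule chose the members by the same levels. The members were also less abundant than most genes, with a median mean level of 5.19 CPM against 22.0 CPM.

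**Figure D2:**
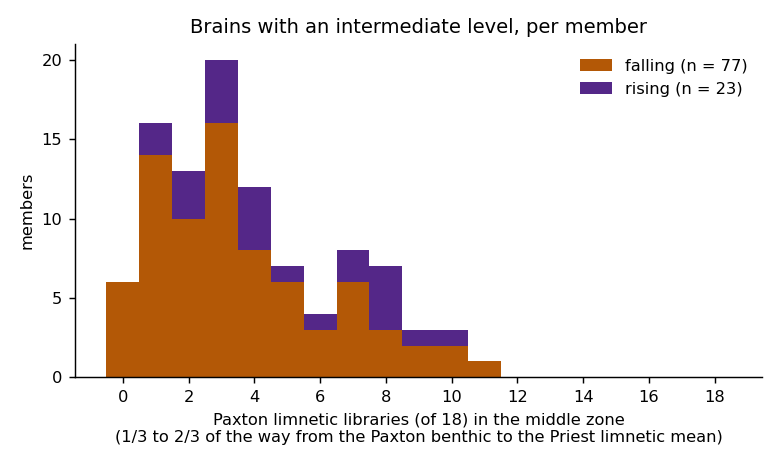
Number of members (vertical axis) by the number of the 18 Paxton limnetic brains whose level was in the middle zone of the distance between the Paxton benthic and Priest limnetic means (horizontal axis), with falling and rising members stacked. Most members have few such brains, and only 4 have more than 9 of 18.

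The libraries of the populations seldom separated completely at a member. Between Paxton benthic and Paxton limnetic, 4 members had ranges that did not overlap (0.404% of all 17565 genes), and all were falling: ENSGACG00000020189, ENSGACG00000007546, ENSGACG00000020434 and ENSGACG00000007557. Between Paxton limnetic and Priest limnetic there was no such member (0.114% of all genes), and 1 without trial 72, ENSGACG00000019512. Between Paxton benthic and Priest limnetic there were 7 (0.404% of all genes) and, without trial 72, 19. The shares of all genes include trial 72 and were not computed without it, so the counts without it have no reference. Nothing is read from these counts and shares, since the rule used the same contrasts.

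The largest falling gradients had a stepped form, with Paxton limnetic brains either high or low. ENSGACG00000003407 had the largest smaller gap of all members, 1.79 log2 units. Its level ran from 31.3 to 79.6 CPM in Paxton benthic (median 59.2) and from 0.128 to 8.41 CPM in Priest limnetic (median 0.554). In Paxton limnetic, 10 brains were at 1.57 CPM or below and the other 8 at 17.3 CPM or above, up to 72.4 CPM, and no brain lay in the middle zone. The low brains therefore overlapped with Priest limnetic and several of the high ones with Paxton benthic.

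ENSGACG00000003404, ENSGACG00000003405 and ENSGACG00000003408 stand with ENSGACG00000003407 in an unbroken run of 4 rows of the deposited table and followed it closely. Centred on the population means, the median Pearson r over the 6 pairs of these 4 genes was 0.976 (0.990 within the 18 Paxton limnetic brains). ENSGACG00000003405 had medians of 47.9, 0.846 and 0.803 CPM in the order Paxton benthic to Priest limnetic. With medians of the log2 values in place of means, its Paxton limnetic value was no longer between the others (smaller gap −0.0446 log2 units). ENSGACG00000003404 had medians of 17.1, 0.897 and 0.382 CPM. The same 8 Paxton limnetic brains (trials 17, 20, 25, 26, 37, 40, 55 and 61) were above the widest step for 3 of the 4 genes, and for ENSGACG00000003408 trial 79 joined them. These 8 brains comprised 4 from conspecific courtship, 2 from heterospecific courtship and 2 from the social control. No other gene among the 17465 non-members followed this set with r of at least 0.8.

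Another 6 falling members formed a set, most of them stepped with other brains on the high side: ENSGACG00000001748, ENSGACG00000019826, ENSGACG00000000155, ENSGACG00000001736, ENSGACG00000001050 and ENSGACG00000001742 (median r 0.931, and 0.918 without trial 72). ENSGACG00000001742 was not split in this way, as its widest Paxton limnetic step, 0.497 log2 units, set only trial 17 apart. That of ENSGACG00000001748 was 0.945 log2 units. ENSGACG00000019826 ran from 14.8 to 302 CPM in Paxton benthic (median 150) and from 4.31 to 140 CPM in Priest limnetic (median 8.36), where trial 72 was the highest. In Paxton limnetic it split into 9 brains at 18.7 CPM or below and 9 at 49.5 CPM or above. ENSGACG00000000155 had medians of 132, 28.9 and 7.19 CPM along the gradient, and ENSGACG00000001748 ran from 2.04 to 62.3 CPM in Paxton limnetic (median 9.97). The same 9 Paxton limnetic brains (trials 10, 17, 19, 33, 37, 41, 51, 57 and 79) were above the widest step in 4 of the 6 members. Of the set, ENSGACG00000001050 had the nearest to an on or off pattern, with 5.78 to 17.8 CPM in Paxton benthic, at most 0.278 CPM in Priest limnetic, and in Paxton limnetic 12 brains at 0.0525 CPM or below against 6 at 5.31 CPM or above.

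The high brains of these sets were not the same. Only 2 brains (trials 17 and 37) were above the step both of ENSGACG00000019826 and of ENSGACG00000003407, which is 22.2% of the 9 and 25.0% of the 8. In trial 41 the median position was −0.623 for the set of 32 genes described next, 0.438 for the set of 6 and 1.27 for the set of 4. In trial 37 the same sets were at 0.614, 0.188 and −0.0860. A single Paxton limnetic brain could thus be benthic-like in level at some members and Priest-like at others. Not every brain was mixed in this way. The same sets were at 1.06, 1.02 and 1.27 in trial 49, and at −0.365, −0.222 and 0.288 in trial 17.

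The members were then grouped by how their levels varied together within populations, using Pearson r of log2 values centred on each population mean, joined at an average r of 0.5. This grouping was made after the values were seen and is a description, and the points share library and depth. Over the 4950 pairs of members the median r was 0.0978, and 9.64% of pairs reached 0.5. There were 7 sets of at least 3 members, holding 55 of the 100 genes. The largest had 32 members, all falling, with a median r of 0.713 (0.656 without trial 72). Its r was 0.797 within Paxton limnetic, 0.574 within Paxton benthic and 0.729 within Priest limnetic, where it became 0.278 without trial 72. Without that library the largest set had 24 members, and all 24 were among the 32. This set was also part of a wider group, since 101 of the 17465 non-members followed its mean with r of at least 0.8 (81 without trial 72).

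In the set of 32, Paxton limnetic brains ranged more widely than Paxton benthic brains. They ranged more widely than Priest limnetic brains only when trial 72 was left out. Nothing is read from these ranges, since the members and the set were chosen by the same levels. The median position of the set ran from −0.669 to 1.12 in Paxton limnetic, from −0.615 to 0.376 in Paxton benthic and from 0.615 to 1.33 in Priest limnetic without trial 72, which lay at −0.596. The Paxton limnetic brains of trials 17, 25, 26, 40, 41 and 79 had positions below 0, beyond the Paxton benthic mean. ENSGACG00000020222 shows the pattern. It ran from 1.02 to 26.0 CPM in Paxton benthic (median 9.69) and from 0 to 46.0 CPM in Priest limnetic (median 0.436), with trial 72 the highest. In Paxton limnetic, 11 brains were at 6.62 CPM or below and 7 at 19.6 CPM or above, and the highest, at 77.2 CPM, was above every Paxton benthic brain. The 7 comprised 2 brains from conspecific courtship, 2 from heterospecific courtship and 3 from the social control.

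Other members of the set of 32 lay at other levels, and the order of the brains was not the same in each. ENSGACG00000012783, with the largest gap in the set (1.06 log2 units), had medians of 16.3, 7.65 and 2.97 CPM, and ENSGACG00000008675 had medians of 11.0, 3.77 and 1.84 CPM. ENSGACG00000001797 was the least abundant of all members, with 0.524 to 3.13 CPM in Paxton benthic, 0.161 to 3.86 CPM in Paxton limnetic and 0 to 5.95 CPM in Priest limnetic. In that gene, too, the highest Priest limnetic level was that of trial 72. The 68 members outside the set gave narrower positions, from 0.337 to 0.783 in Paxton limnetic (median 0.478), from −0.130 to 0.143 in Paxton benthic and from 0.977 to 1.14 in Priest limnetic without trial 72, which lay at 0.576. The grouping itself leads to this, since a median over genes that vary together moves more between brains than one over genes that do not. The narrower range is therefore not read as a trait of the 68 members. Over the 18 Paxton limnetic brains the position of the set of 32 and that of the other 68 had r = 0.37 (rho = 0.41), with library and depth shared.

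**Figure D3:**
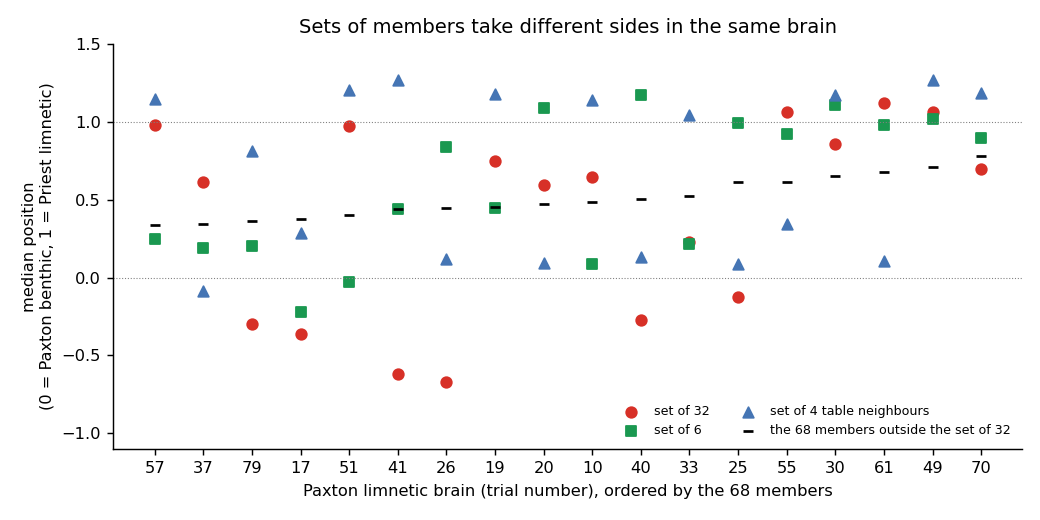
Median position (vertical axis, no unit) of the set of 32, the set of 6, the set of 4 table neighbours and the 68 members outside the set of 32 in each of the 18 Paxton limnetic brains (horizontal axis, trial number). The 68 members stay between 0.337 and 0.783, while the smaller sets jump between the ends in different brains. The sets were formed from genes that vary together in these brains, so their wider movement follows from the grouping.

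A step wider than 1 log2 unit with at least 5 Paxton limnetic brains on each side was present in 16 of the 100 members and in 0.233% of all 17565 genes. Such a step was found in 2 members within Paxton benthic and in 2 within Priest limnetic (0.0854% and 0.205% of all genes). Nothing is read from these shares either, since the rule chose the members by the same levels. Other strong falling members outside the sets were stepped or nearly so. ENSGACG00000004653 had 2.91 to 10.7 CPM in Paxton benthic and no read in 5 of 18 Paxton limnetic and 15 of 17 Priest limnetic brains, though trial 72 had 13.6 CPM. ENSGACG00000018464 had 10.9 to 31.8 CPM in Paxton benthic, and in Paxton limnetic 15 brains in the Priest zone against 3 brains at 11.6, 11.7 and 21.8 CPM. ENSGACG00000013949 had medians of 8.32, 0.494 and 0.163 CPM, with 12 Paxton limnetic brains at 0.893 CPM or below and 6 at 4.48 CPM or above.

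ENSGACG00000010910 was more irregular, with medians of 17.2, 7.05 and 0.556 CPM but 1 Paxton limnetic brain at 91.3 CPM (trial 33). In Priest limnetic, 3 brains (trials 18, 66 and 71) were at 48.2 CPM or above, up to 103 CPM in trial 71. The other 14 were at 3.58 CPM or below. At this gene the populations overlapped widely.

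In a smaller group of members, 9 or more of the 18 Paxton limnetic brains lay in the middle zone. ENSGACG00000007546, with 9 such brains, ran from 158 to 292 CPM in Paxton benthic (median 195), from 71.3 to 147 CPM in Paxton limnetic (median 102) and from 21.9 to 172 CPM in Priest limnetic (median 69.1). Its neighbour in the table, ENSGACG00000007557, ran from 108 to 203 CPM, from 50.6 to 103 CPM and from 18.1 to 111 CPM (medians 139, 72.0 and 52.4). In both, Paxton limnetic lay wholly below Paxton benthic and overlapped with Priest limnetic, in which trial 72 was the highest brain. Priest limnetic itself was stepped in both, with the same 3 brains low (trials 13, 27 and 66) and 14 high. The low brains were at 24.1 CPM or below at ENSGACG00000007546, against 53.7 CPM or above in the 14. At ENSGACG00000007557 they were at 18.6 CPM or below, against 38.7 CPM or above. ENSGACG00000004265 had the most brains in the middle zone, 11 of 18, with medians of 1.72, 0.938 and 0.464 CPM. ENSGACG00000006944 had 10 of 18 there, with medians of 10.2, 6.85 and 4.87 CPM, and its Paxton benthic and Priest limnetic ranges (7.70 to 14.8 CPM and 3.55 to 7.17 CPM) did not overlap.

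**Figure D4:**
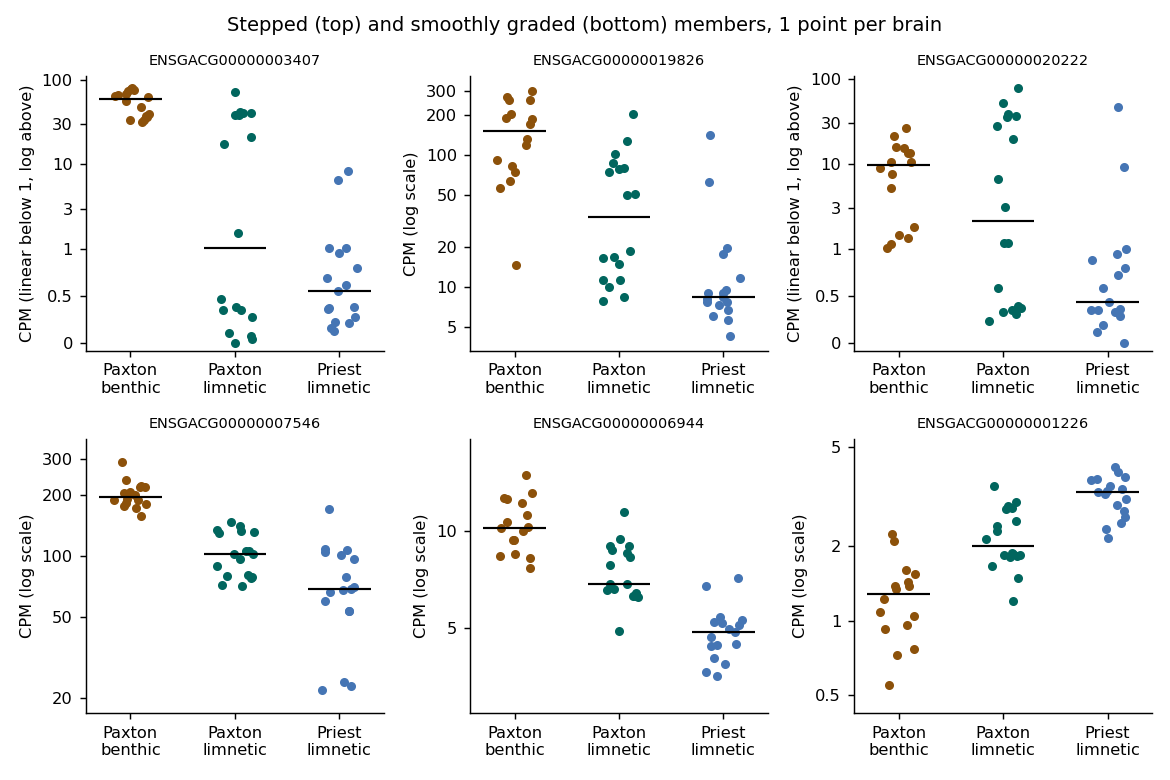
Expression of 6 members in CPM (vertical axis; for 2 panels linear below 1 CPM and logarithmic above, otherwise logarithmic) by population, 1 point per brain, with a line at the median. In the top row (ENSGACG00000003407, ENSGACG00000019826, ENSGACG00000020222) Paxton limnetic brains fall into a high and a low group. In the bottom row (ENSGACG00000007546, ENSGACG00000006944, ENSGACG00000001226) they form 1 band with its median between those of the other populations. That band overlaps the Priest limnetic range in each gene of the row, and the Paxton benthic range in all but ENSGACG00000007546. At ENSGACG00000007546, 3 Priest limnetic brains lie apart at 24.1 CPM or below, against 53.7 CPM or above in the other 14.

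Rising members had smaller gradients. Their whole difference from Paxton benthic to Priest limnetic had a median of 1.31 log2 units, against 1.77 for falling members. Rising members were also less abundant, with a median mean level of 3.11 CPM against 8.72 CPM. A pseudocount of 0.5 narrows log2 differences more at low levels, and its part in this comparison was not tested. The largest smaller gap, 1.01 log2 units, was that of ENSGACG00000003565, which was nearly silent in Paxton benthic (0 to 0.112 CPM, median 0.0109). It ran from 0 to 3.78 CPM in Paxton limnetic (median 0.312) and from 0.0443 to 9.39 CPM in Priest limnetic (median 4.29), so that 11 of the 18 Paxton limnetic brains stayed in the benthic zone. ENSGACG00000003104 was similar, with medians of 0.0125, 0.168 and 0.766 CPM and 13 Paxton limnetic brains in the benthic zone. In Paxton limnetic 2 brains (trials 25 and 49) had 10.4 CPM or more, up to 14.2 CPM. In Priest limnetic 2 brains (trials 23 and 72) had 11.0 CPM or more, and trial 72 was the highest at 11.2 CPM. The smaller gap of this gene was 0.623 log2 units, and 0.531 without trial 72.

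ENSGACG00000018732 was the most abundant of the 3 rising members that formed a set with ENSGACG00000001260 and ENSGACG00000001432 (median r 0.924). It ran from 7.01 to 90.5 CPM in Paxton benthic (median 33.4), from 7.75 to 149 CPM in Paxton limnetic (median 50.4) and from 46.6 to 164 CPM in Priest limnetic. In this gene low brains were seen in both Paxton populations and not in Priest limnetic, and all populations overlapped. ENSGACG00000001260 had medians of 1.32, 2.65 and 4.15 CPM along the gradient.

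ENSGACG00000004618 had medians of 0.724, 2.22 and 4.74 CPM, with 9 Paxton limnetic brains in the middle zone. It stands in the table row beside the falling member ENSGACG00000004653, and this was the only pair of neighbours among the members with opposite directions. ENSGACG00000013153 (medians 5.49, 12.4 and 16.9 CPM), ENSGACG00000018003 (0.455, 0.851 and 2.17 CPM), ENSGACG00000017256 (0.224, 0.406 and 2.00 CPM) and ENSGACG00000002069 (1.11, 2.50 and 4.92 CPM) completed the largest rising gradients with ENSGACG00000013576 below. Of these, ENSGACG00000013153 had 1 Paxton limnetic brain in the middle zone and ENSGACG00000018003 had 2.

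Among rising members the most regular was ENSGACG00000006328, with 10 of 18 Paxton limnetic brains in the middle zone and medians of 0.416, 0.779 and 1.91 CPM. ENSGACG00000001222 and ENSGACG00000001226, also table neighbours, had medians of 1.74, 2.85 and 4.48 CPM and of 1.28, 2.00 and 3.30 CPM.

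A set of 4 rising members was marked by single brains with low levels rather than by a step. ENSGACG00000018030 had 0.284 CPM (11 reads) in the Priest limnetic brain of trial 15, against 20.6 CPM or more in the other 16. It had 0.551 CPM in the Paxton limnetic brain of trial 49, against 11.4 CPM or more in the other 17, and 0.961 CPM in the Paxton benthic brain of trial 82, against 6.78 CPM or more in the other 15. ENSGACG00000013576, ENSGACG00000015226 and ENSGACG00000006970 were also lowest in their populations in trials 15 and 49. At ENSGACG00000013576 the medians were 1.70, 3.27 and 8.96 CPM along the gradient.

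The most abundant member, ENSGACG00000009153 (mean 407 CPM), showed the same feature in the falling direction. It had 0.271 CPM (8 reads) in the Paxton benthic brain of trial 43 and 0.756 CPM (31 reads) in the Paxton limnetic brain of trial 61. The next lowest brains had 265 CPM and 123 CPM, and the Priest limnetic range was 50.6 to 449 CPM (median 148). ENSGACG00000011475 was low in the same brains, with 0.203 CPM and 0.171 CPM against medians of 157 CPM and 104 CPM in the other brains of those populations, so that both genes were far below the rest of the population in these brains. ENSGACG00000015517 was also lowest there, but nearer to the rest, with 7.25 CPM against a next lowest of 13.8 CPM in Paxton benthic and 6.17 CPM against 7.90 CPM in Paxton limnetic.

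Members also lay side by side in the deposited table. In 7 runs of directly adjacent rows there were 18 of the 100 members, and in 6 of the runs all members had the same direction. They were the runs with ENSGACG00000003407, ENSGACG00000007546, ENSGACG00000004618 and ENSGACG00000001222 already named, 3 members of the set of 6 (ENSGACG00000001736, ENSGACG00000001742 and ENSGACG00000001748), and members of the set of 32 in a run of 3 from ENSGACG00000008675 and a pair from ENSGACG00000001330. Whether row order follows the genome, and whether adjacent genes share reads, was not tested.

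Treatment was not used by the rule, and members were tested for it with edgeR's quasi-likelihood test over all 20011 genes that passed a filter on low counts, with Benjamini-Hochberg adjustment over all of them and a threshold of 0.1. All 100 members passed the filter. No member was called in any of the 9 contrasts between treatments within a population. In Paxton benthic the percentages of all genes called were 0.015% (conspecific against heterospecific), 0.00999% (conspecific against social control) and 0.03% (heterospecific against social control), and 2, 2 and 1 of the 100 members had an unadjusted p under 0.05, against 7.45%, 5.82% and 3.77% of all genes. In Paxton limnetic 0%, 0.075% and 0% of genes were called. There, 9, 9 and 5 members had an unadjusted p under 0.05, against 6.6%, 2.85% and 4.45% of all genes. In Priest limnetic 0.005%, 0.02% and 0% of genes were called, and 7, 24 and 14 members had an unadjusted p under 0.05, against 3.34%, 4.66% and 7.7% of all genes. The contrasts of both kinds of male against the social control and of conspecific against heterospecific males over all populations called 0% of genes, with 7 and 6 members under 0.05, against 4.5% and 5.14% of all genes. DESeq2, run as an alternative, called members in 6 of these 11 contrasts, described below. It called no member in the 3 Paxton benthic contrasts (0.045%, 0.035% and 0.125% of all genes), in Paxton limnetic heterospecific courtship against the social control (0.03%) and in conspecific against heterospecific males over all populations (0.04%). For both kinds of male against the social control it called 1 member, ENSGACG00000004653, and 0.005% of all genes. With so few genes called by edgeR, the absence of members among them does not set them apart.

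The 24 members in Priest limnetic moved with trial 72. The median log2 difference of the 77 falling members was −0.79 for conspecific courtship minus social control and −0.65 for heterospecific courtship minus social control, against −0.0050 and −0.0031 over all genes. Without the library of trial 72, the members under an unadjusted 0.05 numbered 5 and 7 in place of 24 and 14, against 4.89% and 9.26% of all genes. DESeq2 called 3 members in the first contrast and 2 in the second, all lower with males, and 0.22% and 0.135% of all genes. Of these, ENSGACG00000004653 had no read in any of the 11 courted Priest limnetic brains and 13.6 and 7.37 CPM in 2 of 6 social controls. ENSGACG00000018464 had 15.9 CPM in trial 72 and at most 0.248 CPM in any other Priest limnetic brain, and ENSGACG00000010888 had 5.61 CPM in trial 72 and at most 0.297 CPM elsewhere. Without trial 72, edgeR called 1 member between conspecific courtship and the social control, ENSGACG00000020189, higher with conspecific males, and 0.045% of all genes. Of its 5 conspecific Priest limnetic brains the highest had 2.32 and 1.94 CPM and the median was 0.0513 CPM.

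In Paxton limnetic, the member nearest to a call was ENSGACG00000001965, a rising member. Its level in conspecific courtship ran from 0.529 to 10.7 CPM (median 4.56), in heterospecific courtship from 0.0282 to 1.72 CPM (median 0.582) and in the social control from 0.439 to 2.63 CPM (median 1.47), with 6 brains each. The log2 difference of conspecific minus heterospecific courtship was 2.72 (SE 0.559, edgeR adjusted p = 0.130), and the groups overlapped. DESeq2 called it with 0.23% of all genes. So did edgeR when 1 of 7 libraries was left out (Paxton limnetic trials 30, 37, 40, 55 and 57, Paxton benthic trial 39 and Priest limnetic trial 68), with 0.00995% to 0.38% of all genes called. ENSGACG00000017256 was lower in conspecific courtship (0 to 0.385 CPM) than in the social control (0.106 to 6.24 CPM), with a log2 difference of −3.34 (SE 0.831, edgeR adjusted p = 0.152), and it was called by DESeq2 with 0.215% of all genes. In Priest limnetic, DESeq2 called ENSGACG00000010910 and 0.115% of all genes between conspecific and heterospecific courtship. No conspecific brain reached the 3.58 CPM of the social control brain of trial 72. Conspecific brains had a lowest level of 0.136 CPM and a median of 0.845 CPM. In heterospecific courtship 2 of 6 brains had 103 and 48.2 CPM, the others were also below 3.58 CPM, and the median was 0.196 CPM. The log2 difference of conspecific minus heterospecific courtship was −4.86 (SE 1.36, edgeR adjusted p = 0.512), so that the medians ran the other way.

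The response to conspecific against heterospecific males was also compared between populations. No member was called in any of the 3 interactions (0% of all genes each), with 4 members under an unadjusted p of 0.05 for Paxton limnetic minus Paxton benthic, 4 for Priest limnetic minus Paxton benthic and 13 for Paxton limnetic minus Priest limnetic, against 6.57%, 3.15% and 6.54% of all genes. DESeq2 called no member either, and 0.025%, 0% and 0.01% of all genes. These comparisons share the same brains as the contrasts above.

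Trial number differed between the populations, with a median of 79.5 for Paxton benthic brains against 38.5 for Paxton limnetic and 44.0 for Priest limnetic brains. A slope on trial number within the 9 groups, fitted with edgeR over all genes, was called for 8 of the 100 members, whereas 17.6% of all genes were called. All 8 members rose with trial number. They were ENSGACG00000010788, ENSGACG00000020419, ENSGACG00000006944, ENSGACG00000020000, ENSGACG00000015517, ENSGACG00000013659 and ENSGACG00000005982, all falling members and so highest in the population with the latest trials, and the rising member ENSGACG00000006328. The steepest slope was 0.28 log2 units per 10 trials (SE 0.0548, edgeR adjusted p = 0.000412), that of ENSGACG00000010788. The other 7 had adjusted p-values of 0.0174 to 0.0335.

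ENSGACG00000010788 ran from 3.14 to 43.8 CPM in Paxton benthic (median 8.79), where the brains of trials 90 and 91 had 43.8 and 42.9 CPM, from 2.67 to 19.7 CPM in Paxton limnetic (median 4.91, highest in trial 79) and from 1.11 to 12.1 CPM in Priest limnetic (median 2.59). When the population means were adjusted for trial number, its smaller gap went from 0.53 to 0.13 log2 units. That of ENSGACG00000013659 went from 0.60 to 0.10, that of ENSGACG00000005982 from 0.56 to 0.26, and that of ENSGACG00000015517 from 0.63 to 0.33. In contrast, the gap of ENSGACG00000020419 was 0.55 before and 0.57 after, and that of ENSGACG00000006328 grew from 0.47 to 0.67. Gaps also shrank at some members not called with trial number. That of ENSGACG00000019778 went from 0.46 to 0.22, below the rule, and that of ENSGACG00000011475 from 0.80 to 0.30. Over all members, 96 of 100 still met the rule after this adjustment, and the median smaller gap was 0.57 log2 units before and 0.60 after. ENSGACG00000005982, the second most abundant member, had medians of 261, 178 and 90.7 CPM, and ENSGACG00000013659 had medians of 101, 76.5 and 8.01 CPM with 13 Paxton limnetic brains in the benthic zone. ENSGACG00000020000 had medians of 2.92, 1.16 and 0.360 CPM.

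**Figure D5:**
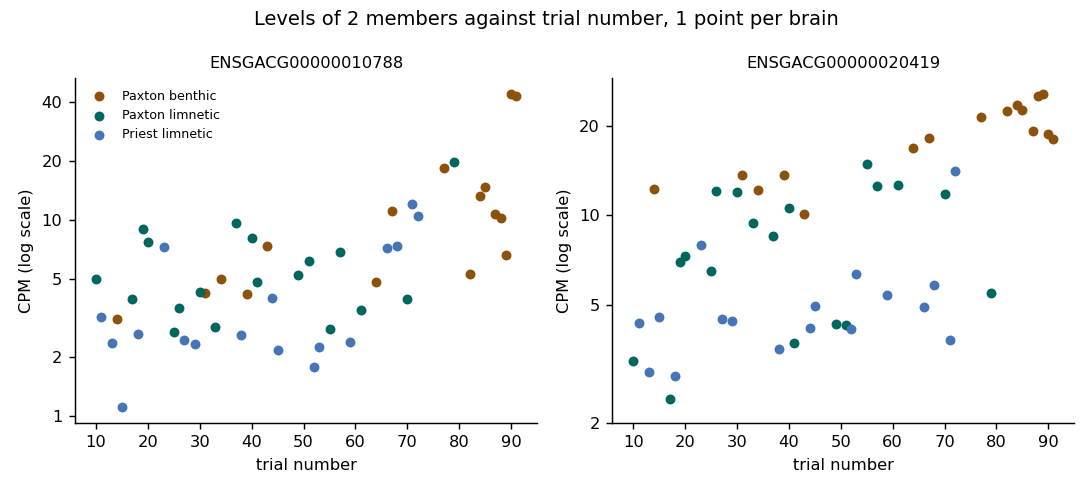
Level in CPM (vertical axis, logarithmic) of ENSGACG00000010788 and ENSGACG00000020419 against trial number (horizontal axis), 1 point per brain, coloured by population. Both rise with trial number within groups; the Paxton benthic brains of trials 90 and 91 carry the highest levels of ENSGACG00000010788, 43.8 and 42.9 CPM, and at ENSGACG00000020419 the Paxton benthic median of 18.5 CPM lies above those of the other populations, 7.93 and 4.48 CPM.

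At the limit of the rule, the last members inside were ENSGACG00000007920 (rising, medians 1.35, 1.53 and 2.43 CPM) and ENSGACG00000019778 (falling, medians 32.4, 16.3 and 5.01 CPM), with smaller gaps of 0.463 and 0.462 log2 units. The first genes outside were ENSGACG00000019990 and ENSGACG00000009946, both falling, with 0.458 and 0.457.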

How the data were processed

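The deposited file is a table of raw counts per gene and library, which the authors made from poly(A) paired-end reads trimmed with Trimmomatic 0.33, aligned with BWA 0.7.7 to the Ensembl BROAD S1 stickleback genome and counted with bedtools 2.23.0. Whether strand was used in counting was not given in the sources used here. Counts carry no molecular identifiers. All 53 columns were matched to labels and 51 entered the rule and the tests. CPM was computed from column totals, with a pseudocount of 0.5 on the log2 scale. The members, gene lists and tests were chosen with earlier results of these data known.

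Treatment contrasts, interactions and the trial slope were fitted in R 4.3.3 with edgeR 4.0.16 (TMM scaling, 9 group means, all genes that passed its filter). DESeq2 1.42.0, other scalings, pseudocounts, filters, leaving out each library and leaving out trial 72 were alternatives. The fit was tested on simulated data. Members were named by rule: the 10 with the largest smaller gap in each direction, those called in a test, the 2 most and 2 least abundant, and those at the limit; other members were named after their values were seen, for the sets and alternatives. Gene lists and tissue markers by symbol gave no value, since 0 identifiers matched a symbol. Each library is 1 fish, so the p-values set group differences or slopes against the spread between fish, estimated over all 9 groups.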

Additional observations from a re-analysis of the deposited data

Results flagged for a closer look

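Median positions were screened for single brains far from the rest of their group of population and treatment. The 9 groups were each screened over all members, over the set of 32 and over the other 68, which gave 27 screens. Chance alone would mark about 1 in 20, but the screens share brains and genes and are not independent. The members and the set of 32 were also chosen by the levels in these same brains. Within Priest limnetic the median r of that set was 0.729, and 0.278 without trial 72. The chance rate is therefore no reference for the brains marked here. In the Priest limnetic social control, the brain of trial 72 stood apart with a position of 0.185 over all members, −0.596 over the set of 32 and 0.576 over the other 68 members. It did so at falling members, with a position of 0.0131. Over the rising members its position was 1.01, near the Priest limnetic mean. Whether this brain differed in origin, handling or dissection was not tested. In Priest limnetic conspecific courtship, the brain of trial 15 stood apart over the set of 32 with a position of 1.02. That is near the Priest limnetic mean, and the other brains of its group lay between 1.22 and 1.25.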

How the results depend on the processing

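Of the 100 members, 98 to 100 met the rule when any 1 library was left out, and 85 to 99 were among the genes then chosen again. With TMM scaling or DESeq2 size factors 100 met it, and 97 and 98 were chosen again. Fewer were kept with a pseudocount of 2 (88 met it, 72 chosen again), with medians (89 and 67), with trial number adjusted (96 and 78), with all 53 libraries (99 and 90) and without trial 72 (98 and 91). With a minimum mean of 5 CPM, 51 met it and 51 were chosen again, because fewer genes were eligible. The smaller gap of ENSGACG00000003405 turned to −0.0446 log2 units with medians in place of means. Under DESeq2, members called numbered 1 in Paxton limnetic for each conspecific contrast, 1, 3 and 2 in the 3 Priest limnetic contrasts, 1 for males against the social control over all populations (0.005% of all genes), and 0 in the other treatment and interaction contrasts. DESeq2 called 0.23% and 0.215% of all genes in those Paxton limnetic contrasts and 0.115%, 0.22% and 0.135% in Priest limnetic. Without trial 72, 1 member was called between conspecific courtship and the social control in Priest limnetic (0.045% of all genes). In that setting 1 member did not overlap between Paxton limnetic and Priest limnetic, and 19 did not overlap between Paxton benthic and Priest limnetic. The matching overlap shares of all genes were not computed. These overlap counts and the set of 24 were chosen after seeing the data. Leaving out each library gave 0 to 1 members for Paxton limnetic conspecific against heterospecific, 0 to 1 for Priest limnetic conspecific against social control, and 6 to 10 for the trial slope. The median smaller gap of falling members was 0.57 log2 units, and 0.64 without trial 72. No paired analysis was possible because no groups share 2 trial numbers; the only number given to more than 1 brain is 89, in the title of a Paxton benthic conspecific brain whose description says 88, which was used. With a pseudocount of 0.1, the smaller gap of ENSGACG00000018464 was 2.40 and that of ENSGACG00000003565 was 2.04 log2 units.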
